A study of Mus musculus with 2 samples.

Results

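The Hox clusters A to D were examined through 38 Hox genes and the 4 chromosomal spans that hold them, each span running from the first to the last Hox gene with 100 kb on either side. The genes were taken by symbol from the GENCODE M21 annotation and are 38 of 21911 protein-coding genes. The spans cover 1285 kb of mouse build mm10 and contained 140 of the 103684 open regions found in the genome. The data were DNase-seq, in which DNase I cuts accessible DNA and the sequenced cut ends mark open chromatin, from gastrocnemius, a calf muscle that bends the ankle and knee. All material came from 14-day-old males of B6CASTF1/J, a cross between a laboratory strain and the wild-derived CAST strain. The labels give 1 group of 2 biological replicates, with no treatment and no mutant allele. Both libraries name the same donor entry, and the words 3x Males in both are not explained, so the number of animals per library is not known. The spread between the libraries may therefore be partly technical. Values are given in the order replicate 1, replicate 2, and ± is the SD over the 2 libraries.

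Hox genes encode homeodomain transcription factors that assign position along the head-to-tail axis and along the limbs of the embryo. Within a cluster the genes stand in the order in which they act, so that low-numbered (anterior) paralogues pattern the hindbrain and neck and high-numbered (posterior) paralogues the lumbar, sacral and distal limb regions. Connective tissue, muscle and skin keep part of this positional pattern after birth. Genes with the same number in different clusters are paralogues, copies that arose when an ancestral cluster was duplicated. Hox proteins bind DNA together with PBX and MEIS partners, and silent Hox genes are held closed by Polycomb proteins.

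The libraries contained 82498 and 88198 peaks. Peak signals are the authors' values, on a scale not given in the sources used here. Replicate 1 was the higher in most places, with a median ratio over replicate 2 of 1.55 in 63851 shared regions. Levels were therefore ranked within each library, and a gene with no peak falls at the tied lowest percentile of 18.3. All 8 muscle fibre markers had promoter peaks in both libraries, as did 2 of 4 myogenic, 3 of 4 fibroblast, 3 of 4 endothelial, 2 of 3 Schwann cell, 1 of 3 neuron and 1 of 3 leukocyte markers, against 61.7% of all protein-coding genes. The defining leukocyte genes Ptprc and Csf1r had none, nor did either hepatocyte marker. In a whole tissue, fewer cells with an open site cannot be told apart from less accessibility per cell.

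A promoter peak, here a strict peak within 1 kb of an annotated start, was present in both libraries at 15 of 38 Hox genes (39.5%), against 61.7% of all protein-coding genes. The open genes were Hoxa3, Hoxa4, Hoxa5, Hoxa7, Hoxa9, Hoxa10, Hoxb5, Hoxc5, Hoxc10, Hoxc13, Hoxd1, Hoxd3, Hoxd8, Hoxd9 and Hoxd10. Taken alone, replicate 1 had a peak at 21 Hox promoters and replicate 2 at 16, against 63.4% of all genes in each library. For 16 Hox genes neither library had a peak, against 34.8% of all genes. The open genes came from every stretch of the axis. Of the anterior paralogues (groups 1 to 4) 4 of 11 were open, of the central ones (groups 5 to 8) 5 of 11, and of the posterior ones (groups 9 to 13) 6 of 16. By cluster the counts were 6 of 10 in HoxA, 5 of 9 in HoxD, 3 of 9 in HoxC and 1 of 10 in HoxB. By paralogue number, all 3 members of group 5 and all 3 of group 10 were open, while groups 2, 6, 11 and 12 had no member open in both libraries.

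**Figure D1:**
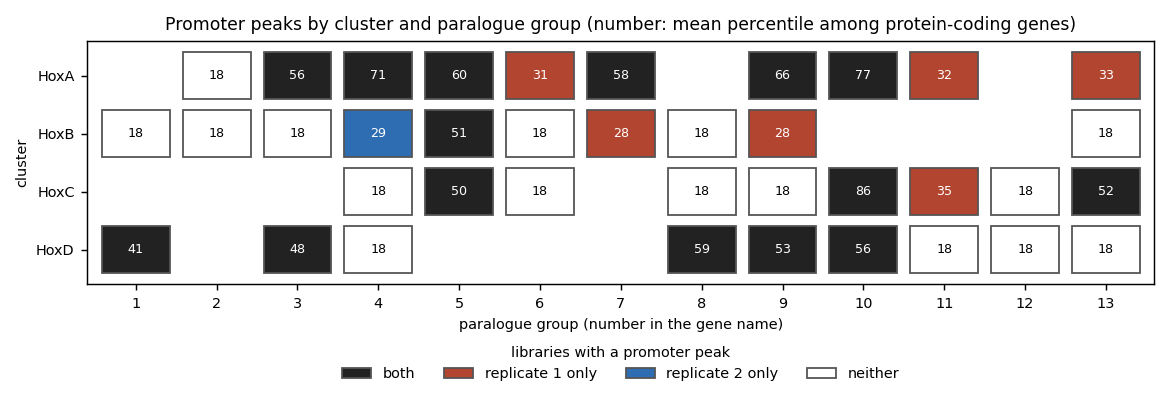
Each square is a Hox gene, placed by its cluster (vertical axis) and paralogue group (horizontal axis), with its fill giving the libraries that had a promoter peak and its number the mean percentile of promoter signal among protein-coding genes. Columns 5 and 10 are filled throughout, and the HoxB row is mostly empty, with 1 of 10 genes open in both libraries.

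Hox promoters ranked low although their CpG content did not. The median observed-to-expected CpG ratio was 0.554 for the Hox genes and 0.484 for all genes. Among 6800 genes within the middle 50% of Hox CpG ratios (0.464 to 0.693), 90.1% had a promoter peak in both libraries. The median promoter percentile was 30.2 for the Hox genes and 50.1 for all genes. In replicate 2 alone the Hox median was 18.3, the percentile of a gene without a peak, and in replicate 1 alone it was 39.2. Open Hox promoters also carried weaker peaks. Their median signal was 2.57 over 21 genes in replicate 1 and 1.95 over 16 genes in replicate 2, whereas all open promoters had medians of 5.95 and 3.40.

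**Figure D2:**
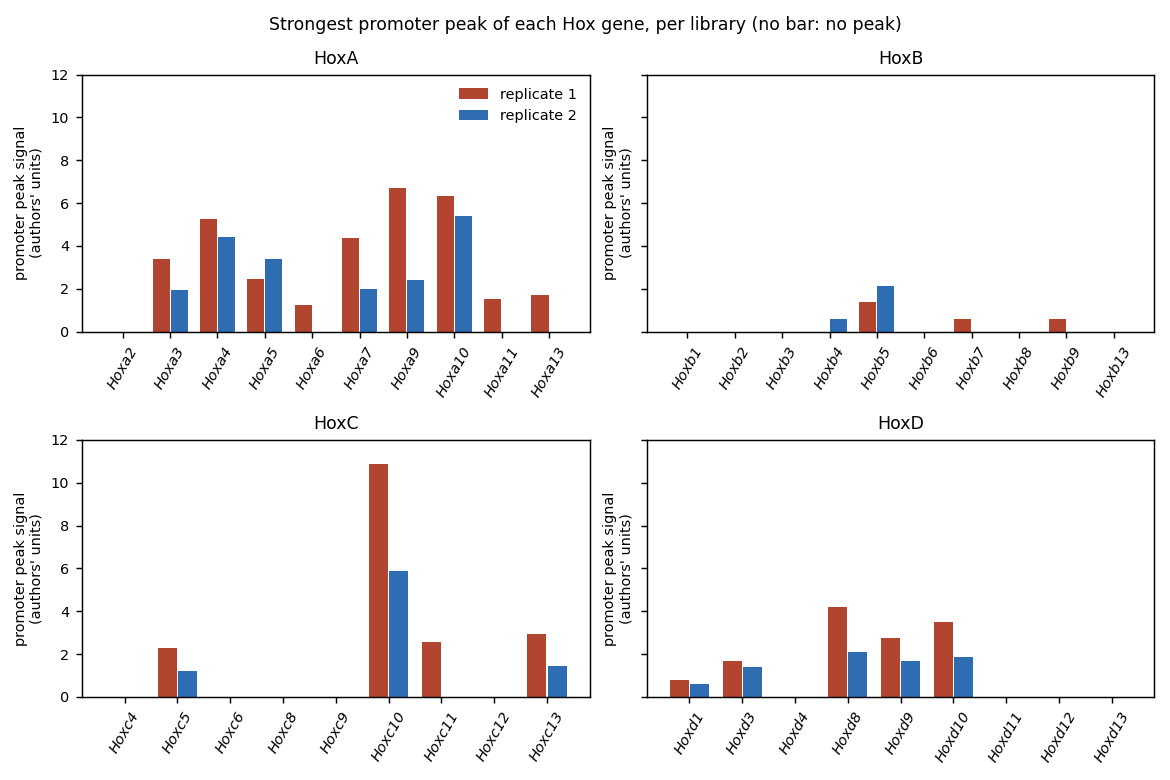
Bars give the signal of the strongest promoter peak (vertical axis, the authors' units, both libraries on 1 scale) of each Hox gene in replicate 1 (red) and replicate 2 (blue), 1 panel per cluster in order of paralogue number. Hoxc10 stands highest at 10.9 and 5.89, and the HoxB panel stays at or below 2.11.

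The strongest Hox promoter was that of Hoxc10, a posterior gene that acts in the lumbar spine and hind limb. Its peak had a signal of 10.9 and 5.89 (8.38 ± 3.52, n = 2), at percentiles 85.6 and 86.9, so the 2 libraries ranked it alike. The window held 8 and 16 footprints, which are short stretches spared from cutting inside open DNA and taken to mark a bound protein.

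The paralogue Hoxd10, also a lumbar and hind limb gene, had signals of 3.50 and 1.88 at percentiles 56.9 and 54.9. Hoxa10, known for its roles in the lumbar spine and the uterus, completed group 10 with 6.33 and 5.38 (5.85 ± 0.676, n = 2). It was the second strongest Hox promoter by mean signal, and its peak lay in an exon, 313 bases after the upstream of its 2 annotated starts. At the start nearest its coding sequence the signals were 2.22 and 1.28.

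Along HoxA, on chromosome 6 in minus orientation, nearly every gene had some promoter peak. Hoxa4, a gene of the neck vertebrae, had 5.26 and 4.40, and Hoxa5, needed for lung and cervical patterning, had 2.46 and 3.40, 1 of 2 open Hox genes with the higher value in replicate 2. Hoxa7 had 4.35 and 1.99 and Hoxa9, a gene of the lower trunk and of blood progenitors, 6.71 and 2.41. Of these 4 genes Hoxa9 had the largest ratio between the libraries. Hoxa3, which shapes the throat and thymus, had 3.37 and 1.92 through its only basic-set start, at 52213115 between Hoxa7 and Hoxa6. At the anterior end Hoxa2, which patterns the second pharyngeal arch, had no peak in either library.

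The 3 other HoxA genes had a promoter peak in replicate 1 only. Hoxa6 had 1.25, Hoxa11, which patterns the lower limb segment, 1.51, and Hoxa13, a gene of hand and foot, 1.71. All 3 had a peak of the permissive list in replicate 2, with signals of 1.197, 0.904 and 0.812. Under the permissive list these 3 genes were thus open in both libraries.

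HoxB, on chromosome 11, was the least open cluster. Hoxb5, active in lung and gut nerve patterning, was its single gene open in both libraries, with 1.38 and 2.11, again higher in replicate 2. Hoxb4, known for its effect on blood stem cells, had 0.578 in replicate 2 only. Hoxb7 had 0.574 and Hoxb9, a thoracic gene, 0.591, both in replicate 1 only. Neither had a permissive peak in replicate 2, so these 2 genes differed between the libraries under both lists. Hoxb1, Hoxb2 and Hoxb3, the hindbrain genes of the cluster, had no peak, nor did Hoxb6, Hoxb8 and the tail-end gene Hoxb13 in the strict lists.

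In HoxC, on chromosome 15, open and closed genes alternated. Hoxc13, known for its role in hair and nail, had 2.93 and 1.43, and its neighbour Hoxc12 had none. Hoxc11, a hind limb gene, had 2.57 in replicate 1 and only a permissive peak of 0.982 in replicate 2. Hoxc10 was followed by Hoxc9, Hoxc8 and Hoxc6, genes of the thorax, which had no strict promoter peak in either library. Hoxc6 was read at its only basic-set start, 103009573. Hoxc5 had 2.30 and 1.22 from different peaks on the 2 sides of its start, and Hoxc4, at the anterior end, had none.

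HoxD, on chromosome 2, changed state once at its posterior end. Hoxd13, the digit gene, Hoxd12 and Hoxd11, a gene of the lower limb segments, had no strict promoter peak in either library. From Hoxd10 on, Hoxd9 had 2.76 and 1.66, and Hoxd8 4.21 and 2.07. All 3 of these were open in both libraries, with replicate 1 the higher. The 250 bases before the RefSeq starts (GRCm38.p6) of closed Hoxd13 and open Hoxd10 are shown for that contrast, each on the plus strand with CpG dinucleotides in capitals.

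Hoxd13 (chr2:74667975-74668224): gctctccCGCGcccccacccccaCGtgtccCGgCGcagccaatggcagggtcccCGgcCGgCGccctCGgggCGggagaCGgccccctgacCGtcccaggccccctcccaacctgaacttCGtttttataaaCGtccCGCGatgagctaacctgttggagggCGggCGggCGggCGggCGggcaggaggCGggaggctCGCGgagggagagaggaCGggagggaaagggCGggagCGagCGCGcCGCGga
Hoxd10 (chr2:74691641-74691890): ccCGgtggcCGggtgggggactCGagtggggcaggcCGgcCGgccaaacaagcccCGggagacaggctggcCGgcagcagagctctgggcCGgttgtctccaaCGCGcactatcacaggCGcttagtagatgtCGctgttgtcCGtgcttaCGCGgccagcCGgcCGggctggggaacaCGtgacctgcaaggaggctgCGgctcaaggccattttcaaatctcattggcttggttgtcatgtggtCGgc

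Closed Hoxd13 held 31 CpG dinucleotides and 74.4% G and C, and open Hoxd10 held 20 and 65.6%. The other closed posterior promoters held 10 CpG dinucleotides at Hoxd12, and 2 and 20 at the 2 RefSeq starts of Hoxd11, so the CpG counts of closed starts ran from below to above that of Hoxd10. Further along the cluster Hoxd4, a neck gene, was closed at its basic-set starts. Hoxd3 had 1.66 and 1.38, but only at a start far upstream of its coding sequence. At the start nearest its coding sequence Hoxd3 had no peak in replicate 1 and 0.450 in replicate 2. The annotated Hoxd4 gene also begins beside that upstream start, at 74711929. It has no basic-set start there, so the peak counted for Hoxd3 only. Hoxd1, the most anterior HoxD gene and known from pain-sensing neurons, was open at 0.808 and 0.606, the weakest of the 15.

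For 9 Hox genes the promoter windows contained no single base with an FDR under 0.05 in either library. These were Hoxa2, Hoxb1, Hoxb2, Hoxb3, Hoxc6, Hoxc12, Hoxd4, Hoxd12 and Hoxd13. They made up 23.7% of the Hox genes, against 29.0% of all genes, a share close to the background. Only basic-set starts were read, so open regions near the upstream ends of the annotated Hoxc6 and Hoxd4 genes did not count for them. The remaining 7 genes without a strict peak in either library, among them Hoxb13, Hoxc9 and Hoxd11, had a permissive peak in at least 1 library. Between these states, 7 Hox genes (18.4%) had a strict promoter peak in 1 library only, against 3.51% of all genes. Of the 7, 6 were open in replicate 1 only, where the share of all genes was 1.75%, and 1 in replicate 2 only, where it was 1.76%. Under the permissive list 21 Hox genes were open in both libraries, against 65.7% of all genes. The 6 gained were Hoxa6, Hoxa11, Hoxa13, Hoxb4, Hoxb13 and Hoxc11, of which 4 are posterior, which raised the posterior count from 6 to 10 of 16.

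Open chromatin along the clusters, promoters included, was unevenly spread. The 4 spans held 70 regions shared by both libraries, or 5.45 per 100 kb, against 2.34 per 100 kb over the genome. The share of regions found in both libraries was 50% in the spans and 61.6% in the genome. Between the outermost Hox genes the density of shared regions was 20.3 per 100 kb in HoxA, 9.29 in HoxD, 8.64 in HoxC and 3.45 in HoxB. HoxA was thus the densest cluster and HoxB the one closest to the genome. Of the 70 regions of the spans, 27 were promoter regions and 43 lay outside promoters. Between the outermost Hox genes, the shared regions outside promoters numbered 10 in HoxA, 8 in HoxC, 5 in HoxB and 1 in HoxD.

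**Figure D3:**
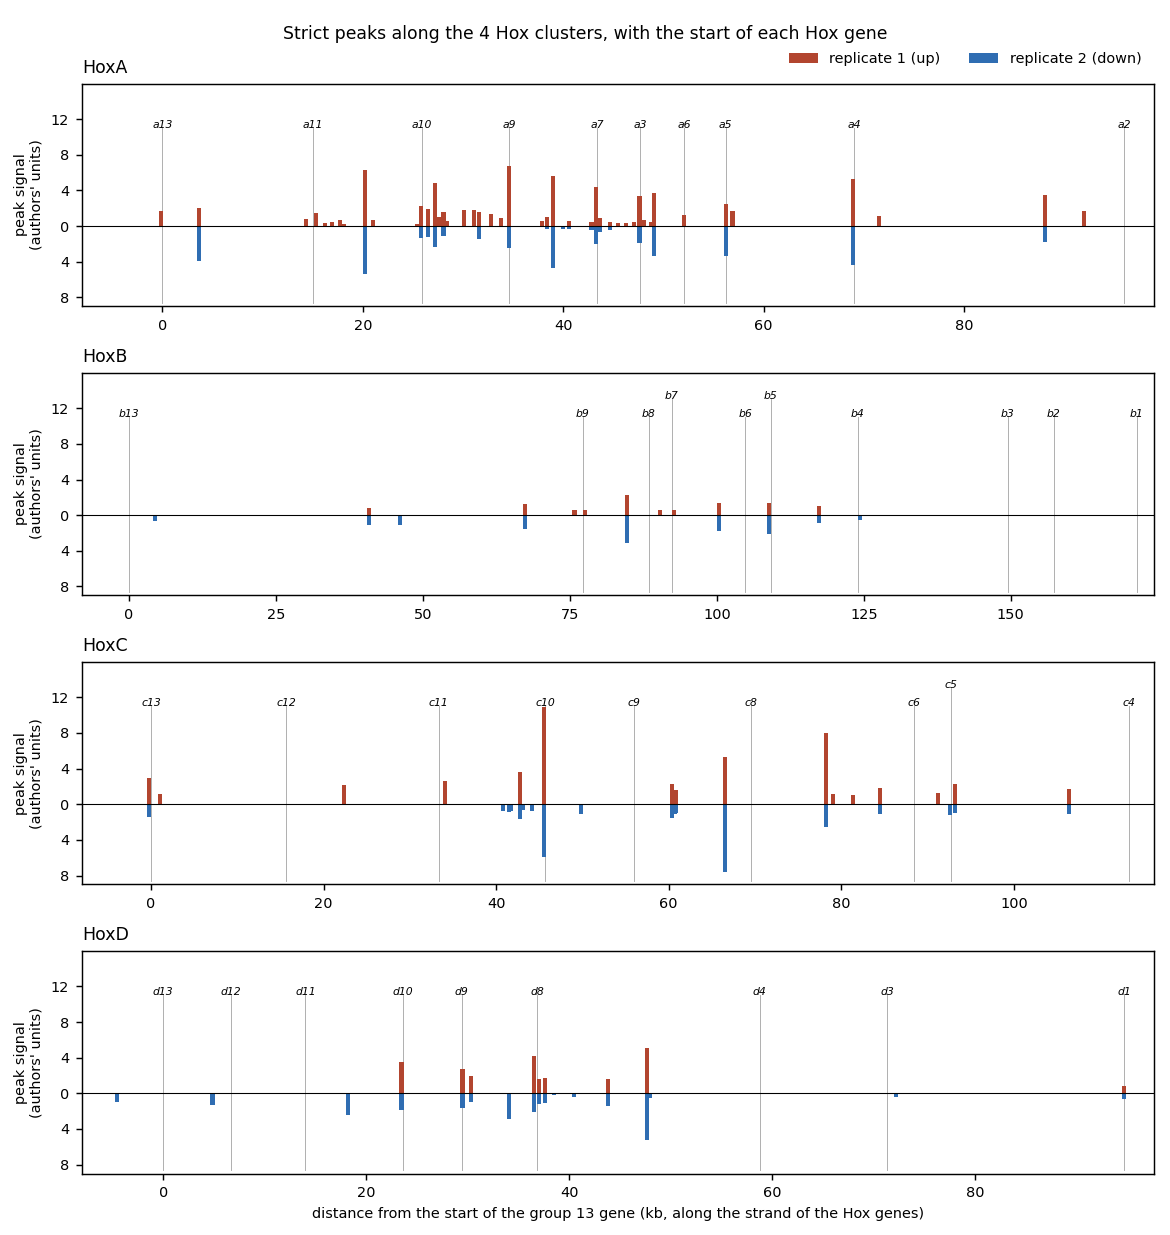
Each bar is a strict peak, with its signal in replicate 1 drawn upward and in replicate 2 downward (vertical axis, the authors' units), against distance in kb from the start of the group 13 gene of each cluster. Thin lines mark the annotated start used for each Hox gene, and that of Hoxa3 stands between Hoxa7 and Hoxa6. HoxA shows a dense run of peaks in its middle, and the anterior end of HoxB, from Hoxb3 to Hoxb1, holds none.

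Within HoxA the open DNA formed a chain between Hoxa6 and Hoxa11. In the interval between the coding starts of Hoxa9 and Hoxa10, 567 and 355 bases per kb had an FDR under 0.05. The intervals from Hoxa7 to Hoxa9 (493 and 368) and from Hoxa6 to Hoxa7 (506 and 258) were similar. From Hoxa10 to Hoxa11 the values were 339 and 83.0, so this interval was open mainly in replicate 1. Toward the anterior end, the interval from Hoxa3 to Hoxa4 had 25.6 and 16.7.

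The other clusters had shorter open stretches. In HoxD the densest interval was Hoxd8 to Hoxd9 with 206 and 252 listed bases per kb, while Hoxd11 to Hoxd12 had none in either library. In HoxC it was Hoxc10 to Hoxc11, with 144 and 291. This interval was the reverse of the HoxA chain in that replicate 2 was the higher, with 5 regions found in that library only. In HoxB the interval from Hoxb2 to Hoxb3 had no listed base, and no strict peak lay between Hoxb1 and Hoxb3 or between Hoxb3 and Hoxb4.

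**Figure D4:**
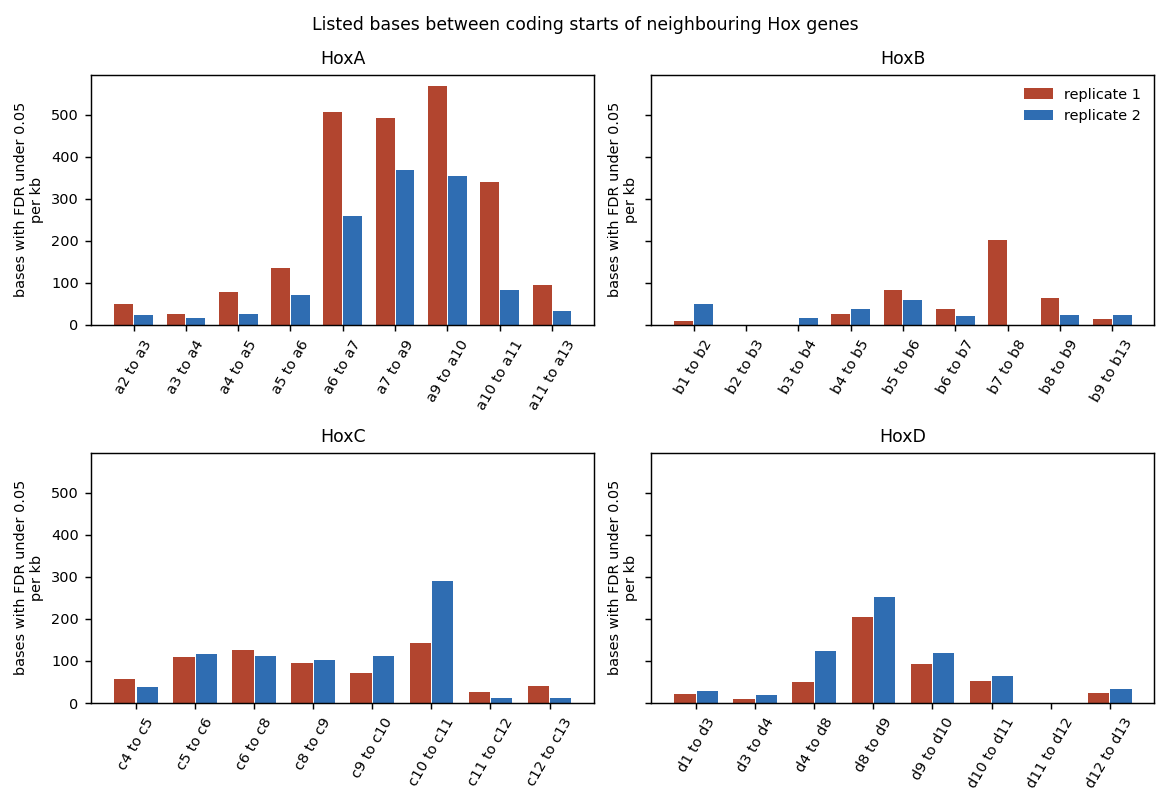
Bars give the bases with an FDR under 0.05 per kb (vertical axis) in replicate 1 (red) and replicate 2 (blue) between the coding starts of neighbouring Hox genes (horizontal axis). The 3 intervals from Hoxa6 to Hoxa10 reach 493 to 567 in replicate 1, above every interval of the other clusters.

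The libraries differed by cluster and not in 1 direction. Between the outermost HoxA genes replicate 1 had 45 peaks covering 10.02% of the sequence, and replicate 2 had 23 covering 4.31%. In HoxD the numbers ran the other way, with 10 peaks in replicate 1 and 18 in replicate 2. HoxB (10 and 9) and HoxC (16 and 17) had similar numbers of peaks in both. Signal differed by cluster as well. Of the 12 shared regions in the HoxB span 9 were stronger in replicate 2, with a median ratio of replicate 1 to replicate 2 of 0.752. The ratio was 1.39 in HoxA (4 of 23 stronger in replicate 2), 1.71 in HoxC (1 of 19) and 1.53 in HoxD (1 of 16), and 1.55 over the genome. HoxB was thus the cluster whose shared regions were mostly the higher in replicate 2.

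**Figure D5:**
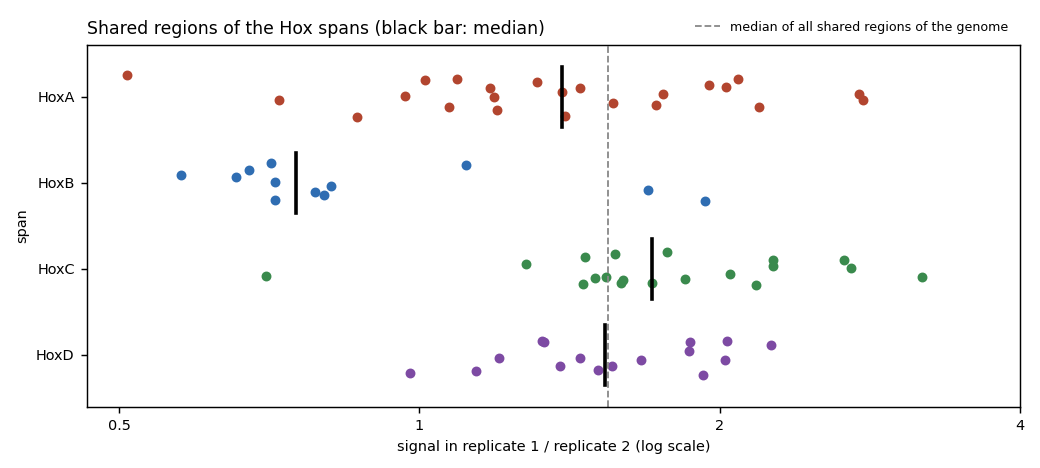
Points are the 70 shared regions of the Hox spans by the ratio of their signal in replicate 1 to replicate 2 (horizontal axis, log scale), in rows by cluster. Black bars are medians (1.39, 0.752, 1.71 and 1.53 from HoxA to HoxD), the dashed line is the genome median of 1.55, and 9 of the 12 HoxB points lie below 1.

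In the HoxA span 29 regions were found in replicate 1 only and 5 in replicate 2 only, while in the HoxD span none was found in replicate 1 only and 8 in replicate 2 only. A peak of the permissive list in the other library was present for 11 of the 29 HoxA regions of replicate 1 only, for none of the 5 in HoxB and for all 9 in HoxC. Over the 4 spans this held for 20 of 43 regions of replicate 1 only and 15 of 27 of replicate 2 only, against 52.3% and 53.6% over the genome. The shares of the cell types in each sample were not measured, and their part in these differences was not tested.

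Some of the strongest open regions lay outside promoters. In HoxC a region between Hoxc8 and Hoxc9 lay at chr15:102987521-102987700, within the span of the annotated Hoxc5 gene. It had signals of 5.33 and 7.60, at percentiles 89.0 and 98.7 of the peaks of each library. In HoxD the strongest lay at chr2:74715841-74716040 at a start of the antisense transcript Hoxd3os1, with 5.09 and 5.21. In HoxA it was chr6:52221721-52221960, with 5.59 and 4.70 and 6 footprints in each library. It covers the upstream end of the annotated Hoxa7 gene, at 52221854. It counts as outside promoters because the basic set has no start there. These 3 regions were nearly as strong in replicate 2 as in replicate 1, or stronger. The HoxC and HoxD regions are shown on the plus strand, since both hold the core of the CTCF consensus described further on, with capitals for bases in footprints of both libraries.

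HoxC region between Hoxc8 and Hoxc9: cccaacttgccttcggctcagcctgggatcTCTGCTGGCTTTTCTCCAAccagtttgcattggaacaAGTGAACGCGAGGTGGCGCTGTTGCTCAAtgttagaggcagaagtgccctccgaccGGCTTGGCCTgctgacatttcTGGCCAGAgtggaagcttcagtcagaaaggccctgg
HoxD region at Hoxd3os1: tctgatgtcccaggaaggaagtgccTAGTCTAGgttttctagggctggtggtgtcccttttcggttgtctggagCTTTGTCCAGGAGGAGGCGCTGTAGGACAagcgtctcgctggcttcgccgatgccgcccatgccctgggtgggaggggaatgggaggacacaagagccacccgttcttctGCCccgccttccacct

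Next in strength in HoxC came chr15:102999201-102999500 at 7.99 and 2.50, and chr15:103093821-103094040 in the flank beyond Hoxc4 at 4.46 and 1.65. The region at 7.99 and 2.50 lies within the annotated Hoxc6 gene, near its upstream end at 102998257. It counts as outside promoters because the only basic-set start of Hoxc6 is at 103009573. The HoxA list continued with chr6:52211621-52211840 at 3.69 and 3.39 and chr6:52233501-52233720 within Hoxa10 at 4.83 and 2.38. In HoxB the strongest was in the flank, chr11:96413641-96413920, 48.0 kb from the start of Hoxb1, with 4.93 and 2.55 and 7 footprints in each library. Between the HoxB genes the strongest was chr11:96278901-96279060, between Hoxb8 and Hoxb9, with 2.23 and 3.14. A second HoxB flank site, chr11:96407781-96408000, had 2.67 and 1.57. In HoxD the next regions outside promoters were chr2:74655501-74655700 in an exon of Evx2, a homeobox gene beside Hoxd13, at 1.91 and 1.32, and chr2:74850160-74850320 within Mtx2 at 0.892 and 0.440. The Hox region with most footprints was the Hoxd9 promoter, chr2:74697541-74698060, with 8 and 9.

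Peaks of the spans contained 275 and 289 footprints (mean 282), or 12.5 and 15.4 per kb of peak, against 14.2 and 15.2 in all peaks. The Hox density was the lower in replicate 1 and about equal in replicate 2.

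Several protected stretches carried the same core. CTCF is the zinc finger protein that anchors chromatin loops and is known to separate active from silent Hox domains. The letters AGNNGGCGC, with N any base and both strands read, form part of its consensus and overlap the shorter AGGNGGC that was also searched. They were chosen after the sequences above had been seen, so their frequency in the Hox spans is a description. In the central 200 bases, 18 of 70 shared Hox regions held a match (25.7%), against 9.66% of 63851 shared regions of the genome. The longer CTCF consensus went the other way, with 2 of 70 Hox regions (2.86%) against 6.90% of the genome. Over their whole length, 20 Hox regions held 22 matches, and 10 matches lay wholly in footprints of both libraries. The following 6 of these 10 lie at or between Hox genes and are shown in the orientation of the core, in capitals, with 10 bases before it.

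Hoxc8 to Hoxc9 (plus strand): agtgaacgcgAGGTGGCGCtgttgctca
Hoxb5 promoter (plus strand): aatcgccgggAGGTGGCGCgctctgctc
Hoxa11 to Hoxa13 (plus strand): tgtcaacacgAGGTGGCGCccttgatct
Hoxd3os1 (plus strand): tttgtccaggAGGAGGCGCtgtaggaca
Hoxa10 promoter (minus strand): agccgccacgAGATGGCGCactcccgat
Hoxb9 to Hoxb13 (minus strand): accgacctctAGGCGGCGCcctggcgtt

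Of the others, 3 lay in the flanks, near Ttll6, within Evx2 and beyond Hoxc4. Each cluster held at least 1 of the 6 shown. The site between Hoxa11 and Hoxa13 (chr6:52257061-52257220) had signals of 1.99 and 3.91, the site between Hoxb9 and Hoxb13 (chr11:96261661-96261820) 1.29 and 1.61, and both were higher in replicate 2. Of all 10 regions with such a match, 6 were stronger in replicate 2. The same held for 1 of 10 regions with only other matches and for 8 of 50 without a match. Over all shared regions it held for 15 of 70 in the Hox spans (21.4%) and for 20.6% in the genome. The count mixes match with cluster, since 5 of 8 HoxB regions without a match were also stronger in replicate 2. Whether the match bears on the ratio was not tested. Over the genome, shared regions with the longer consensus had a median ratio of replicate 1 to replicate 2 of 0.775, against 1.60 for those without it. A match is not evidence that CTCF was bound.

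Letters read by Hox proteins, their partners and muscle factors were each found in 0 to 8 of the 70 regions. The PBX-HOX composite TGATTNAT and the MEF2 letters CTATTTNTA occurred in 0 of 70, against 1.60% and 1.03% of regions in the genome. With genome shares this low, 0 of 70 is close to the background. The posterior HOX letters TTTATNG were in 5 of 70 (7.14%, against 4.68%), and the MEIS letters TGACAG in 6 of 70 (8.57%, against 14.4%). The E-box CAGCTG, read by myogenic factors, was in 8 of 70 (11.4%, against 23.3%). Both strands of the central 200 bases were read, and the absence of a match says only that these letters are not in that window.

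Of the 6 microRNA genes in the clusters, 2 had a strict peak within 1 kb of the annotated start in both libraries. No share over all microRNA genes is given here for comparison. The annotated start of a microRNA gene need not be where its transcript begins. Mir196b, between Hoxa9 and Hoxa10, had signals of 1.80 and 1.47 from different peaks in the 2 libraries. Mir196a-1 in HoxB and Mir196a-2 in HoxC had none. Mir10a beside Hoxb4 and Mir10b beside Hoxd4 had none either. Mir615, inside the Hoxc5 gene, had 2.30 and 1.01, from a region that also lies in the promoter window of Hoxc5. The families are known to target Hox messenger RNAs, and their RefSeq mature sequences are shown with the seed, bases 2 to 8, in capitals, to show which genes share a seed. Mir196b, which had peaks, shares its seed with the Mir196a genes, which had none. Mir10a and Mir10b, also without peaks, share theirs.

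miR-196a-5p: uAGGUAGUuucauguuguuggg
miR-196b-5p: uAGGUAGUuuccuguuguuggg
miR-10a-5p: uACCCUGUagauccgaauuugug
miR-10b-5p: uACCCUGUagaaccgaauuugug

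Among the long non-coding RNAs, Hotair between Hoxc11 and Hoxc12, Hottip beyond Hoxa13, and Hoxb3os and Hoxb5os had no promoter peak. Hoxd3os1 was the most open, at the region shown above. Gm15050 in HoxA had 3.52 and 1.80 and Gm53 in HoxB 1.29 and 1.61. Hoxa11os had 1.51 in replicate 1 only, from the same peak as Hoxa11, and Halr1 in the HoxA flank had 0.762 in replicate 2 only.

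All 8 PBX, MEIS and PREP partner genes had promoter peaks in both libraries, with a median percentile of 64.8. Pknox1 had 16.2 and 7.97, Pbx3 11.8 and 6.87, and Meis1 7.50 and 2.53. Of 24 regulators of Hox genes 20 were open. For comparison, 61.7% of all genes were open, and 90.1% of the genes with CpG ratios like those of the Hox genes. The latter share was not matched to the CpG ratios of the partner or regulator genes. The open regulators included the Polycomb genes Ezh2 (13.8 and 7.01) and Cbx8 (19.5 and 7.85), the opposing methyltransferase gene Kmt2a (15.1 and 10.6) and Ctcf (8.03 and 4.19). The 4 closed ones were Cdx1, Cdx2 and Cdx4, which start Hox expression in the embryo, and the demethylase gene Kdm6b. Of the genes that tell hind limb from forelimb, Tbx4 was open (1.28 and 0.656), Pitx1 had 1.02 in replicate 1 only and the forelimb gene Tbx5 had none.

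Of 15 protein-coding genes that border or overlap the clusters, 8 were open, 2 had a peak in 1 library and 5 had none, against 61.7% of all genes open. Skap2 (15.8 and 7.23) and Hibadh (13.01 and 8.48) beyond HoxA, and Lnpk (8.84 and 3.93) and Mtx2 (2.94 and 2.22) beyond HoxD, had peaks in both libraries. The homeobox genes Evx1 beside Hoxa13 and Evx2 beside Hoxd13 were not open in both libraries, with 0.864 for Evx1 in replicate 1 and no peak for Evx2. Skap1 and Calcoco2 beyond HoxB, and 5730596B20Rik and Gm28230, had none either.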

How the data were processed

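The authors deposited, per the labels, peaks, footprints and an FDR track for each DNase-seq library on mm10. Peak signal is the value deposited by the authors; its scaling is not stated there. FDR values per base (adjusted p-values, as deposited) are listed under 0.05, and the deposited footprints have a constant FDR of 0.01. The aligner and callers were not given in the sources used here. Per the deposited metadata, peaks came from each library alone. Of 2 peak lists per library the shorter, strict one was used and the longer, permissive one served as the alternative.

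Promoters were 1 kb either side of any GENCODE M21 basic start. Peaks overlapping by at least 1 base were merged, and regions with peaks of both libraries were called shared. Percentiles were taken within a library over 21911 genes. Scripts (Python 3.11.15, pandas 2.3.3, pysam 0.24.0) were tested on simulated data. With 1 group no test was possible. Read depth is unknown, so no interval is given. Every Hox gene was named except 1, which like some other items is not reported here. For regions, the 3 strongest shared ones outside promoters per cluster were named. Members, lists and windows were chosen with earlier results of these data known. The CTCF letters were added after the data were seen. Alternatives were other promoter windows and starts, the permissive list, other flanks and overlaps, and each library alone.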

Additional observations from a re-analysis of the deposited data

How the results depend on the processing

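The count of open Hox genes, 15, ranged from 14 to 21 over all alternatives run, and their median percentile, 30.2, from 18.3 (without replicate 1) to 39.5. It was 19.8 with a promoter window of 250 bases. A window of 250 bases lost Hoxc5, the start nearest the coding sequence (added after the data were seen) lost Hoxd3, the most 5′ start lost Hoxa9, peaks at or above the median signal lost Hoxd1, and a window of 2500 bases gained Hoxb6. The posterior count, 6, was 10 with the permissive list and 6 to 10 with 1 library left out. Shared regions in the spans, 70, became 119 with the permissive list, 107 with flanks of 200 kb and 101 to 114 with 1 library left out, where the remaining library's peaks are all counted. Between the outermost genes, 45 became 78 with the permissive list and 67 to 81 with 1 library left out. Footprints, 282, became 445 when those outside peaks were counted. The other counts stayed within 1.5 times. No paired analysis was possible because there is 1 group. The unknown read depth limits what weak or absent peaks show.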
